A study of Mus musculus with 19 samples.

Results

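Among the 19 lymphomas of Eμ-Myc mice in the series, 9 arose late, and 5 of these 9, with low Rag1 and high MHC class II transcripts, were set against the other 4. All 19 mice carried Eμ-Myc, a transgene whose Myc oncogene is expressed in the B lineage under control of the Igh enhancer. The 5 tumours had been proposed as mature-like and the 4 as immature-like. They were picked from measured values, namely Rag1, genes of early B cell stages and MHC class II genes in these same tumours, so differences between the 2 classes are given as a description without a test. The 5 comprised 3 Bptf+/Δ tumours (HET_late_1, HET_late_2 and HET_late_4, with onset at 30, 44 and 66 weeks) and 2 Bptf+/+ tumours (WT_late_1 and WT_late_2, at 36 and 76 weeks). The 4 comprised 1 Bptf+/Δ tumour (HET_late_3, at 30 weeks) and 3 Bptf+/+ tumours (WT_late_3, WT_late_4 and WT_late_5, at 58, 38 and 28 weeks). Bptf is the gene of the chromatin reader in NURF, a complex that slides nucleosomes, and Δ is its deleted allele. The sources used here do not say which exons Δ lacks. The 10 early lymphomas, with onset at 8 to 17 weeks, were 4 Bptf+/Δ and 6 Bptf+/+ tumours and stood outside the choice of classes. Each library was polyadenylated RNA of 1 whole, flash-frozen tumour. Values are normalised read counts, meaning reads per gene divided by 1 factor for each library.

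B cells assemble their receptors while they develop in the bone marrow. Rag1 and Rag2 encode the recombinase that cuts immunoglobulin gene segments, the surrogate light chain and the receptor of interleukin 7 belong to pro-B and pre-B cells, and Cd93 marks immature B cells. MHC class II molecules present peptides to helper T cells. Their level rises as B cells mature, and they are also carried by dendritic cells and macrophages. After an antigen response, germinal centre B cells switch their heavy chain isotype, and plasma cells then secrete antibody.

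MHC class II genes share a promoter module of short elements, whose Y box is bound by NF-Y and whose X box is bound by the RFX complex. The promoters of 4 class II genes of chromosome 17 are printed because class II level is what the classes were named for. They are the 150 bases before the RefSeq transcription start in GRCm38.p6, for H2-Aa chr17:34287824-34287973 on the minus strand, for H2-Eb1 chr17:34305717-34305866, for H2-Oa chr17:34092229-34092378 and for H2-DMb1 chr17:34153041-34153190, the last 3 on the plus strand. Capitals mark the Y box core ATTGG or its reverse complement CCAAT.
H2-Aa: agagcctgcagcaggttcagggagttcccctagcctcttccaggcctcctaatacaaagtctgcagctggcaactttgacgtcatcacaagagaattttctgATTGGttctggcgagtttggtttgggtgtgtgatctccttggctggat
H2-Eb1: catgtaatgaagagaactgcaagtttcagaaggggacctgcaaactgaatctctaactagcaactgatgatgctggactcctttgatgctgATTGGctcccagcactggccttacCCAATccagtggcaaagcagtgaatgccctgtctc
H2-Oa: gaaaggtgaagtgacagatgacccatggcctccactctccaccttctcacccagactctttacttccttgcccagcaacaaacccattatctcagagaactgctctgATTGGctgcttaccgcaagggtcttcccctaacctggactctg
H2-DMb1: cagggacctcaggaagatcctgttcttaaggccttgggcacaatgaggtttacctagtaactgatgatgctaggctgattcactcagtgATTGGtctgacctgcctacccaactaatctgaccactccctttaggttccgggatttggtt
Of the 15 listed class II genes, 11 had a promoter in the RefSeq table, with 12 promoters in all. ATTGG or CCAAT was found on either strand in 10 of these 12 windows, which run from 250 bases before to 50 after the start, against 37.4% of 32851 promoters of the same length. The Ctss window and the H2-DMa window at 34122582 to 34122881 had no match. In the other H2-DMa window the only match began 198 bases before the start. The windows with a match include those of Rfx5 and Rfxank, which encode parts of the RFX complex. The longer CTGATTGG, which contains the shorter motif, or CCAATCAG was found in 4 of 12, in H2-Aa, H2-Eb1, H2-Eb2 and H2-Oa, against 4.1% of all promoters. Such a match describes letters and shows no binding.

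Depth recovered from the values was 8995949 to 11506496 reads in the 5 tumours, 8297856 to 12350345 in the 4, and 9753478 to 12497732 in the early ones. Among the early libraries HET_early_2 stood apart in its low B cell transcripts. It had 38.5 counts of Cd79a and 3.99 of Myb, against early medians of 4824 and 1950. Its most abundant transcript was Col2a1, a cartilage collagen, at 4.36% of reads. WT_early_6 was also unusual in its most abundant transcript, Bpifa2, at 5.07% of reads, but had 8868 counts of Cd79a. Igha took 5.55% of the reads of HET_late_4, and its immunoglobulin constant genes together took 18.5%, against 0.210% to 0.942% in the other 8 late libraries. Early results are also given without HET_early_2, and counts of class differences without HET_late_4.

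The genes used to define the classes did not all separate them. Rag1 (ENSMUSG00000061311.6, GRCm38 chromosome 2, 101638282 to 101649501, minus strand) had 0.871, 4.32 and 1.51 counts in HET_late_1, HET_late_2 and HET_late_4, and 11.1 and 5.10 in WT_late_1 and WT_late_2. In the other class it had 3.15 counts in HET_late_3, 5367 in WT_late_3, 36.2 in WT_late_4 and 628 in WT_late_5. HET_late_3 was thus as low as the 5, and the 2 classes overlapped. Rag2 (ENSMUSG00000032864.4, chromosome 2, 101624718 to 101632529, plus strand) was listed at 0 in 4 of the 5 and had 1.02 counts, a single read, in WT_late_2. It had 0.787 counts, again a single read, in HET_late_3, and 688, 9.67 and 44.7 in WT_late_3, WT_late_4 and WT_late_5. Cd93 (ENSMUSG00000027435.8, chromosome 2, 148436640 to 148443563, minus strand) was at 375, 177, 125, 216 and 228 counts in HET_late_1, HET_late_2, HET_late_4, WT_late_1 and WT_late_2. It was at 408 in HET_late_3, 4329 in WT_late_3, 662 in WT_late_4 and 2471 in WT_late_5, so the classes did not overlap but HET_late_1 and HET_late_3 nearly met.

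The class II markers H2-DMa and H2-Eb1 separated the classes. H2-DMa (ENSMUSG00000037649.10, chromosome 17, 34119541 to 34139101, plus strand), a chain of the editor that loads peptides onto class II, had 1980, 2375, 1921, 1975 and 2260 counts in HET_late_1, HET_late_2, HET_late_4, WT_late_1 and WT_late_2. It had 344, 717, 666 and 880 counts in HET_late_3, WT_late_3, WT_late_4 and WT_late_5. The means were 2102 ± 202 (SD, n = 5) and 652 ± 225 (SD, n = 4), and the members nearest the boundary were HET_late_4 at 1921 and WT_late_5 at 880. H2-Eb1 (ENSMUSG00000060586.11, chromosome 17, 34305867 to 34316674, plus strand), a beta chain of the presenting molecule, had 9727, 12214, 13355, 11469 and 13242 counts in the 5 tumours in the same order. It had 1579, 4447, 2633 and 6921 in the 4. Both genes were higher in every one of the 5 than in any of the 10 early tumours, which reached 640 counts of H2-DMa and 3350 of H2-Eb1.

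The names mature-like and immature-like did not hold throughout. Ighd, the heavy chain of the IgD receptor of mature naive B cells, was lower in the 5 tumours, at 9.03 to 192 counts, against 227 to 2795 in the 4. Cd79a, a receptor chain that B cells carry at nearly all stages, was lower as well. The 5 tumours are therefore called class II-high below, and the 4 are called class II-low.

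**Figure D1:**
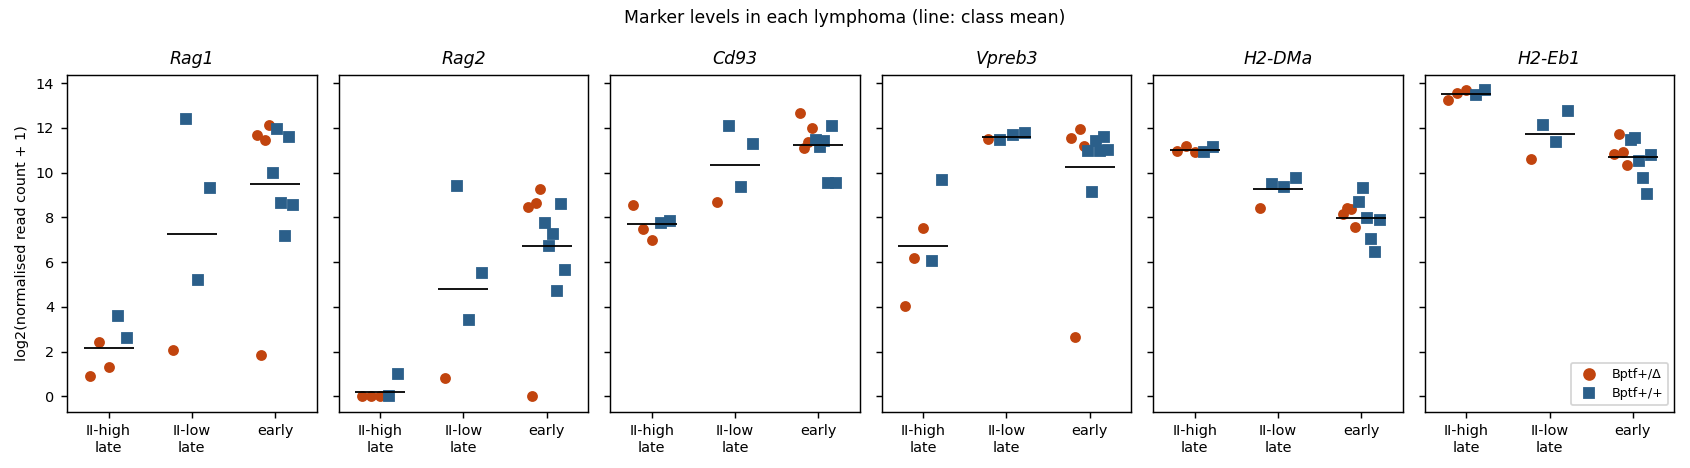
Normalised read counts on a log2 scale after adding 1 (vertical axis) of 6 genes in each lymphoma, by class (horizontal axis: class II-high late, class II-low late, early). Points are tumours, round for Bptf+/Δ and square for Bptf+/+, and lines are class means. The 5 class II-high tumours lie between 1921 and 2375 counts of H2-DMa, above all others, whereas HET_late_3 lies among them in Rag1.

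Of 17948 genes that reached a value of 1 in 4 or more of the 9 late libraries, 1104 (6.15%) separated the classes. Of these, 819 (4.56%) were higher in all 5 class II-high tumours than in all 4 class II-low ones, with class means at least 1 apart on the log2(count + 1) scale. In the other direction 285 (1.59%) were lower in all 5. Without a minimum size the counts were 1049 (5.84%) and 948 (5.28%). All differences between the classes below are class II-high minus class II-low on that log2 scale, which understates differences of weakly expressed genes. The median difference over all 17948 genes was 0.08. Because the classes were chosen on these tumours, nothing is read from these counts. The higher count was 1322 without WT_late_3 and ran from 916 to 1174 on leaving out any other single late library. Without HET_late_4 the counts were 942 higher and 333 lower genes, and without HET_late_3, whose Rag1 was low, they were 1048 and 397.

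Genes of early B cell stages, on which the classes were partly picked, were lower as a group. Of 19 kept genes of the pro-B and pre-B list, 7 (36.8%) were lower in all 5 class II-high tumours, against 1.59% of all genes. There was 1 higher (5.26%, against 4.56%), and the median difference was -2.63. Vpreb3, a surrogate light chain relative, had 15.7, 72.0, 182, 65.5 and 822 counts in HET_late_1, HET_late_2, HET_late_4, WT_late_1 and WT_late_2, against 2950, 2824, 3260 and 3533 in HET_late_3, WT_late_3, WT_late_4 and WT_late_5. All 4 class II-low tumours were close together in it, although they spread widely in Rag1. Il7r, the receptor of interleukin 7, had 33.1 to 221 counts in class II-high tumours and 877 to 1480 in class II-low ones. Myb, a transcription factor of progenitor cells, had 125 to 256 against 1520 to 2741 counts. Lef1, a transcription factor of the WNT pathway active in pro-B cells, had 2.77 to 43.7 against 233 to 1539, and Sox4, another early factor, had 9.03 to 138 against 213 to 823. The seventh was Cplx2, which encodes complexin 2, a regulator of vesicle fusion, with 18.4 to 48.9 counts in the class II-high tumours and 312 to 2549 in the class II-low ones.

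The exception was Flt3, a cytokine receptor of lymphoid progenitors and of dendritic cells. It had 1042, 206, 157, 1524 and 895 counts in HET_late_1, HET_late_2, HET_late_4, WT_late_1 and WT_late_2, against 11.8, 38.6, 22.96 and 93.0 in HET_late_3, WT_late_3, WT_late_4 and WT_late_5. The surrogate light chain gene Igll1 was listed at 0 in all 5 class II-high libraries and had only 0.787 to 34.9 counts in class II-low ones. Dntt, the enzyme that adds bases at segment joins, had 0 to 3.01 counts in class II-high and 0 to 61.5 in class II-low tumours. Arpp21, Kit, Spn, Bst1, Erg and Ptprk overlapped between the classes, as did Cd24a, which ran from 324 to 10064 counts in class II-high and from 8716 to 20797 in class II-low tumours.

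Genes of the class II pathway, on which the classes were picked, were higher in part. Of 15 listed genes 7 (46.7%) were higher in all 5 class II-high tumours, against 4.56% of all genes, and 0 were lower. The median difference was 1.44, and 0.84 without HET_late_3. H2-Oa, a chain of the DO modulator of loading, had 180 to 440 counts in class II-high tumours and 0.787, 53.02, 45.9 and 77.7 in HET_late_3, WT_late_3, WT_late_4 and WT_late_5. Cd74, the invariant chain, had 32396 to 45238 counts in class II-high tumours and 1311, 20359, 4616 and 26398 in HET_late_3, WT_late_3, WT_late_4 and WT_late_5. Ctss, the protease that trims it, had 4692 to 14256 against 417 to 2587 counts. H2-Aa had 9615 to 17506 against 1531 to 7652, and H2-Ab1 had 9888 to 16196 against 2083 to 7815. The partner chains of H2-DMa overlapped, with 543 to 1150 counts of H2-DMb1 in class II-high tumours and 264 to 767 in class II-low ones, and with 727 to 1723 against 69.2 to 741 counts of H2-DMb2.

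Ciita, the master coactivator of these promoters, overlapped, with 300 counts in HET_late_2 and 1124 to 2478 in the other 4 class II-high tumours, against 382 to 1139 in class II-low ones. Rfx5, Rfxank and Rfxap, the subunits of the factor that binds the X box, overlapped too, with differences of 0.36, 0.54 and -0.19. H2-Ob, the partner of H2-Oa, differed by -0.19 (-0.53 to 0.04 on leaving out 1 late library). H2-Eb2, another presenting chain, overlapped with a difference of -1.14, at 10.1 to 853 counts in class II-high tumours and 264 to 497 in class II-low ones. The summed level of the 15 genes was 75598 to 101449 counts in class II-high tumours, 9555 to 55668 in class II-low tumours and 5718 to 27910 in early ones. Within the class II-low tumours HET_late_3 was the lowest and WT_late_5 the highest.

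Genes of germinal centre and plasma cells were higher in part. Of 19 listed, 7 (36.8%, against 4.56% of all genes) were higher in all 5 class II-high tumours and 0 were lower. The median difference was 2.69. Rgs13, a regulator of chemokine receptor signals in germinal centre B cells, had 225, 861, 510, 279 and 1703 counts in HET_late_1, HET_late_2, HET_late_4, WT_late_1 and WT_late_2, against 1.57, 1.20, 1.21 and 0 in HET_late_3, WT_late_3, WT_late_4 and WT_late_5. Early tumours reached 9.80. Mef2b, a transcription factor that acts upstream of Bcl6 in germinal centres, had 1298, 343, 778, 1344 and 2578 counts in the 5, against 9.44, 0, 4.83 and 5.88 in the 4.

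Ell2, an elongation factor that favours secreted antibody transcripts, had 386 to 1406 counts in class II-high tumours and 20.5 to 81.8 in class II-low ones. Jchain, which joins secreted antibody units, had 825 to 57297 against 51.8 to 513, and S1pr2, a receptor that keeps B cells in germinal centres, had 245 to 3826 against 56.6 to 243. Creld2, an endoplasmic reticulum chaperone, had 1105 to 9168 against 353 to 520 counts.

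**Figure D2:**
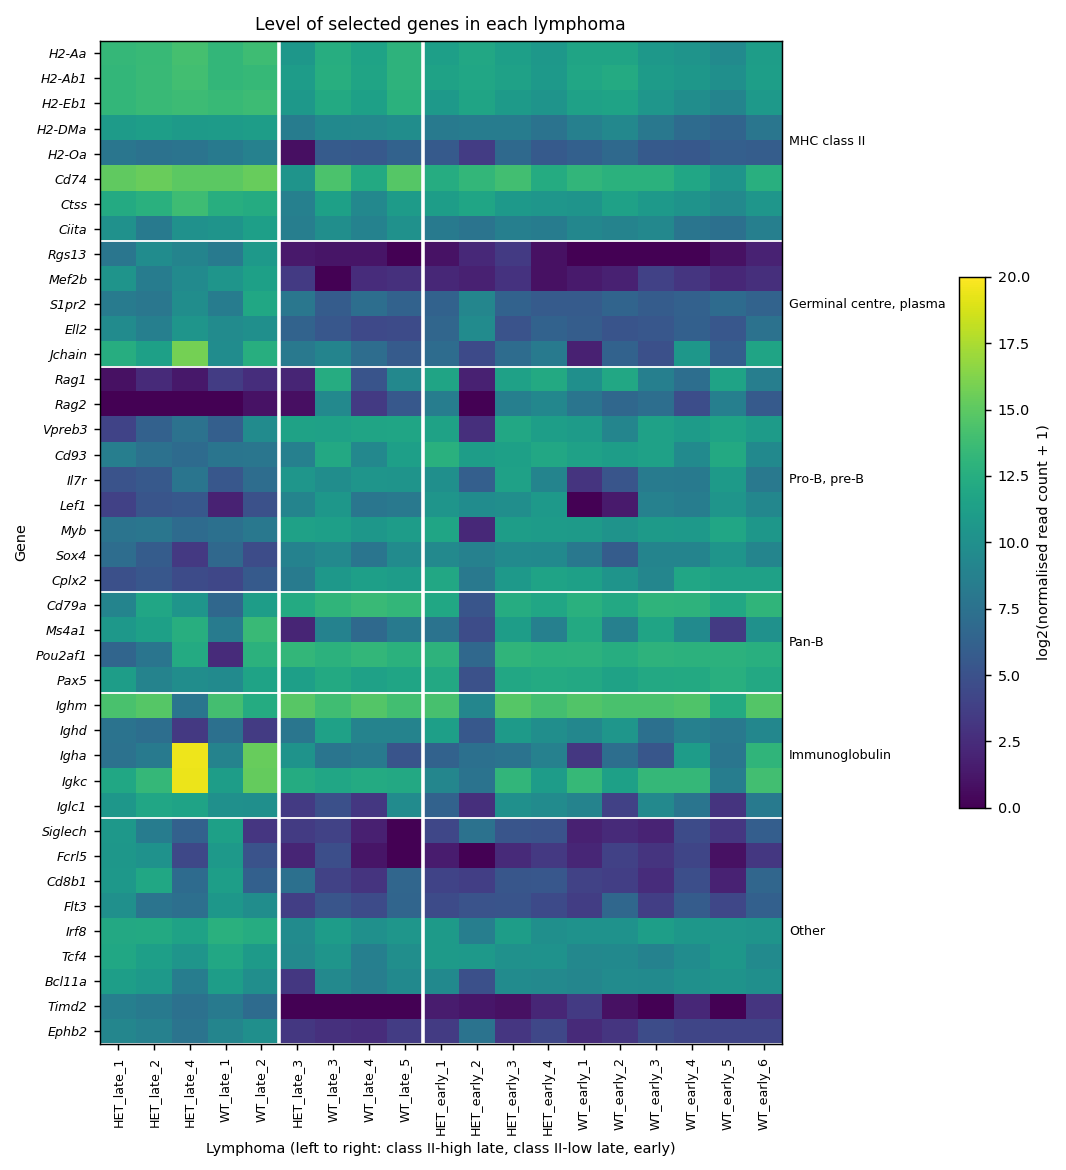
Normalised read counts on a log2 scale after adding 1 (colour) of 40 genes (rows) in each of 19 lymphomas (columns: 5 class II-high, 4 class II-low, 10 early). HET_late_1, HET_late_2 and WT_late_1 share high Siglech and Fcrl5 and low Pou2af1, whereas HET_late_4 and WT_late_2 have high Igha and Igkc.

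The class II-high tumours were not alike in their B cell genes. Cd79a, a signalling chain of the B cell receptor, had 517, 3755, 1352, 103 and 2257 counts in HET_late_1, HET_late_2, HET_late_4, WT_late_1 and WT_late_2. It had 4794 to 11924 in class II-low tumours. Pou2af1, an octamer coactivator, was named after its values were seen. It had 93.2, 216 and 4.61 counts in HET_late_1, HET_late_2 and WT_late_1, 4847 in HET_late_4 and 7586 in WT_late_2, against 7002 to 9952 in class II-low tumours. Ms4a1, which encodes CD20, overlapped in the other direction, with 324 to 12044 counts against 3.15 to 475. Of 19 pan-B genes 1 (5.26%) was higher, Cd180, a receptor related to Toll-like receptors, and 2 (10.5%) were lower, against 4.56% and 1.59% of all genes. The median difference was -0.61, but -0.39 without HET_late_1, -0.37 without WT_late_1 and -0.32 without WT_late_5.

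The 3 tumours with the lowest Pou2af1 shared other transcripts. Siglech, known from plasmacytoid dendritic cells, had 1598, 344 and 2677 counts in HET_late_1, HET_late_2 and WT_late_1, 73.8 in HET_late_4 and 8.15 in WT_late_2, against 0 to 14.5 in class II-low tumours. Fcrl5, an Fc receptor-like protein of B cells, had 1538, 1164 and 1738 counts in those 3, 19.6 in HET_late_4 and 33.6 in WT_late_2, against 0 to 27.7. Cd8b1, a CD8 chain, had 1614, 3847 and 2411 counts in the 3, 123 in HET_late_4 and 69.3 in WT_late_2, against 7.25 to 165. Nfkbiz, an NF-κB cofactor, had 1994, 1108 and 3728 in the 3, 75.3 in HET_late_4 and 86.6 in WT_late_2, against 22.96 to 97.7.

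Tcf4 and Bcl11a, transcription factors of B cells and plasmacytoid dendritic cells, were also highest in these 3. Tcf4 had 3799, 2561 and 4006 counts, against 1367 and 1946 in HET_late_4 and WT_late_2 and 393 to 1383 in class II-low tumours. Bcl11a had 2394, 1682 and 2264 counts, against 349 and 941 in HET_late_4 and WT_late_2 and 8.65 to 706 in class II-low tumours. Tcf4 was likewise named after its values were seen. Ighm, the IgM heavy chain, was nevertheless abundant in the 3, with 19290, 27721 and 16809 counts, and made up 93.9% to 96.5% of heavy chain constant counts there.

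In HET_late_4 and WT_late_2, the tumours with the latest onset in the class, most heavy chain constant transcripts were of switched isotypes. Whether these came from the tumour cells or from other cells in the whole tumour was not tested. Heavy chain classes other than Ighm and Ighd held 99.99% of heavy chain constant counts in HET_late_4 and 90.2% in WT_late_2, against 2.49% to 5.54% in the other 3 class II-high tumours and 0.889% to 16.4% in class II-low ones. Early tumours ran from 0.0781% in WT_early_1 to 24.1% in HET_early_2 and 31.96% in WT_early_6. Igha, the IgA heavy chain, had 752208 counts in HET_late_4 and 40898 in WT_late_2, against 186 to 488 in the other 3 and 36.5 to 1221 in class II-low tumours. Ighg2c, an IgG heavy chain, had 734797 counts in HET_late_4, and 77.5 in WT_late_2. Ighg2b, another IgG heavy chain, had 316767 counts in HET_late_4 and 4309 in WT_late_2. Cr2, the complement receptor of mature and follicular cells, was named after its values were seen and had 3476 counts in WT_late_2, but 31.6 in HET_late_4 and 0 to 2.88 in the other 3. Constant genes of related isotypes are similar to each other, so reads may be split between them, and these levels are uncertain to that extent.

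Light chains differed too. Iglc1, a lambda constant gene, had 1014 to 3687 counts in class II-high tumours, against 9.44, 28.9, 8.46 and 788 in HET_late_3, WT_late_3, WT_late_4 and WT_late_5. Lambda constant genes summed to 2251 to 9655 counts in class II-high tumours, against 58.0 to 98.3 in 3 class II-low tumours and 2039 in WT_late_5. Lambda held 48.9%, 44.2% and 49.99% of light chain counts in HET_late_1, HET_late_2 and WT_late_1, and 1.38% and 5.86% in HET_late_4 and WT_late_2. In class II-low tumours it held 1.23% to 2.24%, except for 31.7% in WT_late_5. Of the 12 immunoglobulin constant genes 1 (8.33%) was higher, Iglc1, and 1 was lower, Ighd, against 4.56% and 1.59% of all genes. The median difference was 1.63, but 0.46 without HET_late_4 and 2.81 without WT_late_1.

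Similarity over all kept genes showed the same unevenness. Pearson's r across genes, which are not independent replicates, was 0.973 between HET_late_1 and WT_late_1 and 0.936 between HET_late_4 and WT_late_2. It was 0.896 to 0.973 (median 0.918) over the 10 pairs within the class II-high tumours, 0.927 to 0.958 (median 0.942) over the 6 pairs within the class II-low ones, and 0.896 to 0.925 (median 0.905) over the 20 pairs between them. Some class II-high pairs were thus no closer to each other than to tumours of the other class.

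Of 20 B lineage transcription factors 1 (5.0%) was higher and 2 (10.0%) were lower, against 4.56% and 1.59% of all genes. Irf8, a factor of B cells and dendritic cells, had 2868 to 6799 counts in class II-high tumours and 816 to 2092 in class II-low ones. Bach2, which restrains plasma cell formation, had 130 to 714 against 1146 to 1921, and Tcf3, which encodes the E2A proteins needed for B lineage commitment, had 1419 to 3402 against 4791 to 6996. The other 17 were not among the counted genes, Pax5 with 482 to 3028 against 2439 to 4462 counts among them. Of 28 receptors of mature B cells 4 (14.3%) were higher and 1 (3.57%) was lower. Gpr183, which guides B cells outside follicles, had 66.3 to 344 against 3.53 to 30.7 counts, and Cd86, a costimulator of T cells, had 338 to 999.9 against 102 to 147. Tnfrsf13b, the TACI receptor of the survival factors BAFF and APRIL, had 1507 to 3309 against 717 to 1141, and the fourth was Il4ra, the interleukin 4 receptor, with 837 to 1499 against 419 to 575. Cxcr4, the chemokine receptor that holds cells in bone marrow, was lower, at 472 to 1286 against 1445 to 2090 counts. The median difference was -0.25 over the transcription factors (-0.30 to -0.03 on leaving out 1 late library, with the smallest size without HET_late_2). Over the receptors it was 1.28, and 0.83 without WT_late_2.

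Signalling genes downstream of the B cell receptor included 2 higher of 22 listed (9.09%, against 4.56% of all genes). Their median difference was 0.75. Rasgrp3, an activator of RAS, had 90.7 to 1581 counts in class II-high tumours and 21.7 to 56.6 in class II-low ones. Among 13 NF-κB genes 1 (7.69%) was higher, also against 4.56% (median difference 0.63). It was Bcl3, a coactivator of the p50 and p52 subunits, with 148 to 799 against 15.7 to 142 counts.

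Of 30 cell cycle genes 0 were counted in either direction. A lower mean in class II-high tumours was found for 27 of the 30, against 8048 of all 17948 genes, and 7 of the 30 were lower without overlap at any size, against 5.28% of all genes. Their median difference was -0.39, and -0.20 without HET_late_4. Mki67, which encodes the Ki-67 antigen, had 3909 to 8601 counts in class II-high and 9078 to 10710 in class II-low tumours, and Top2a, a topoisomerase, had 3017 to 7277 against 7981 to 8672. Myc itself overlapped, with 2271 to 6567 counts in class II-high tumours and 6223 to 14847 in class II-low ones (difference of means -1.16). Of 25 genes of the MYC list 1 (4.0%) was lower, against 1.59% of all genes. It was Tfrc, the transferrin receptor, at 1460 to 4078 against 5269 to 16556 counts. A lower mean was found for 22 of the 25 (median difference -0.34).

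Genes of the p53 pathway included 4 higher of 19 (21.1%, against 4.56% of all genes) and 0 lower (median difference 0.97). Cdkn1a, which encodes the cell cycle inhibitor p21, had 214, 346, 495, 242 and 900.0 counts in HET_late_1, HET_late_2, HET_late_4, WT_late_1 and WT_late_2, against 125, 67.5, 93.0 and 141 in HET_late_3, WT_late_3, WT_late_4 and WT_late_5. The others were Zmat3, an RNA-binding target of p53, with 372 to 1081 against 49.4 to 165 counts, Sesn2, a stress sensor, with 151 to 325 against 38.6 to 97.5, and Bbc3, which encodes the death factor PUMA, with 253 to 383 against 100.03 to 186. In the BCL2 family 2 of 14 (14.3%) were higher, Bbc3 and the survival factor Bcl2l2 (median difference 0.44).

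Interferon response genes were higher in part. Of 30 listed, 7 (23.3%, against 4.56% of all genes) were higher in all 5 class II-high tumours and 0 were lower. The median difference was 1.37. Mx1, an antiviral GTPase, had 34.6 to 151 counts in class II-high and 1.20 to 33.0 in class II-low tumours. Iigp1 and Igtp, GTPases induced by interferon gamma, had 176 to 509 against 20.5 to 67.7 counts and 236 to 682 against 57.7 to 203. Gbp2, a guanylate-binding protein, had 276 to 779 against 27.8 to 192. In antigen processing for MHC class I 3 of 16 (18.8%) were higher (median difference 0.96). The peptide transporter Tap1 was at 1191 to 2266 against 474 to 1059 counts.

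The unfolded protein response, which expands the folding capacity of secretory cells, was higher in 7 of 20 genes (35.0%) and lower in 0. Over all genes 4.56% were higher, and the median difference of the list was 0.72. Hspa5, its main chaperone, had 21514 counts in HET_late_4 and 7926 to 10403 in the other 4 class II-high tumours, against 3555 to 5807 in class II-low ones. Edem1, which feeds misfolded proteins to degradation, had 7788 counts in HET_late_4, 4354 in WT_late_2 and 1053 to 1466 in the other 3, against 654 to 808. Both were highest in the tumour with the most immunoglobulin RNA.

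Of 13 kept genes of NURF and related ISWI remodellers, 3 were lower without overlap at any size, against 5.28% of all genes. Cecr2, a BPTF-related partner of the ISWI motor, was the 1 counted gene (7.69% of the list, against 1.59% of all genes). It had 116 to 354 counts in class II-high and 441 to 4968 in class II-low tumours. Rbbp4, a histone-binding subunit, had 2416 to 3453 against 3931 to 4380 counts, and Smarca5, an ISWI motor, had 1209 to 1591 against 1681 to 2119, with differences of -0.62 and -0.47. The median difference of the list was -0.43. Bptf had 1573, 408, 694, 1681 and 2391 counts in HET_late_1, HET_late_2, HET_late_4, WT_late_1 and WT_late_2, against 1137, 2586, 2087 and 2217 in HET_late_3, WT_late_3, WT_late_4 and WT_late_5. These values overlapped, and the class II-high mean includes 3 Bptf+/Δ tumours.

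**Figure D3:**
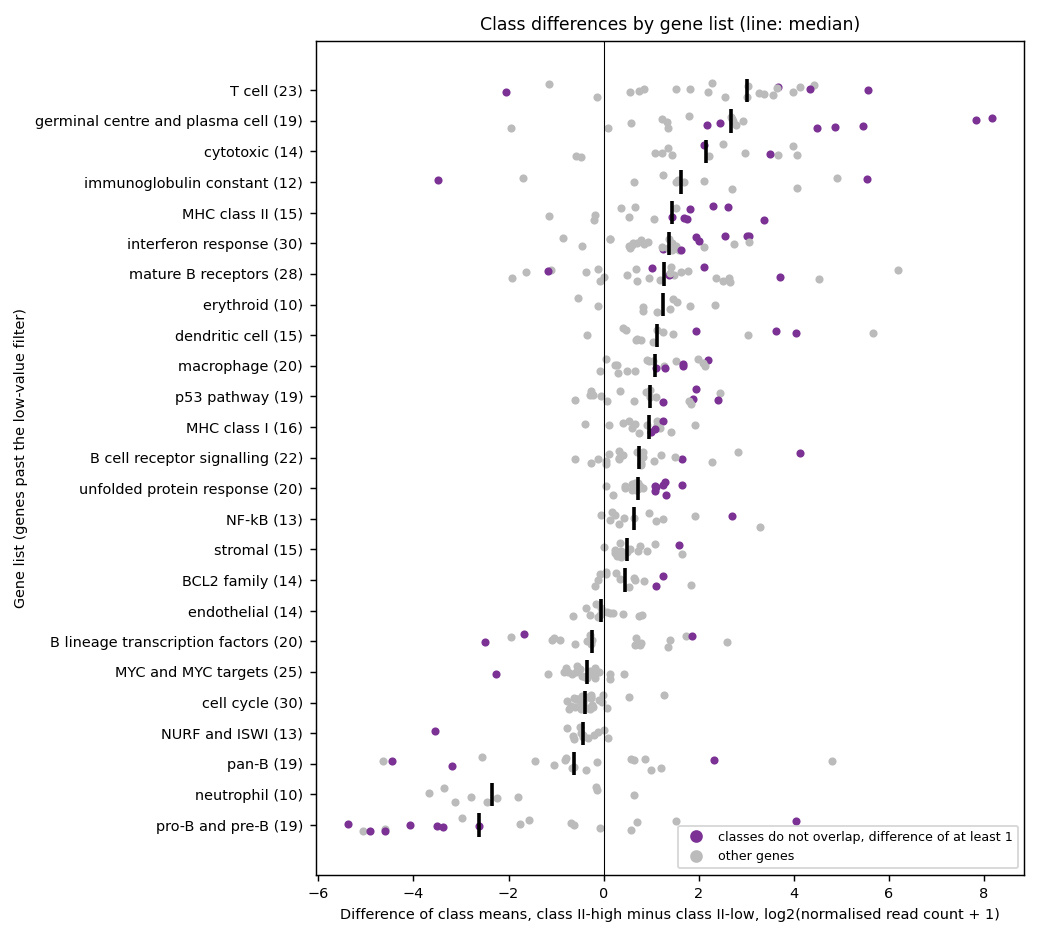
Difference of class means, class II-high minus class II-low, on the log2(count + 1) scale (horizontal axis) for the kept genes of 25 lists (vertical axis). Each point is a gene, coloured where the classes do not overlap and differ by at least 1, and each line is the list median, which runs from -2.63 for pro-B and pre-B genes to 3.01 for T cell genes.

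Markers of some other cell types also differed between the classes. In RNA of whole tumours, more cells of a type cannot be told apart from more RNA per cell. Of 23 T cell genes 3 (13.0%) were higher and 1 (4.35%) was lower, against 4.56% and 1.59% of all genes. Their median difference was 3.01, and their summed level was 4633 to 10982 counts in class II-high and 1468 to 4839 in class II-low tumours. Cd3e, a chain of the T cell receptor complex, had 37.5, 108, 105, 7.38 and 131 counts in HET_late_1, HET_late_2, HET_late_4, WT_late_1 and WT_late_2, against 0.787, 9.64, 1.21 and 0 in HET_late_3, WT_late_3, WT_late_4 and WT_late_5. WT_late_1, the highest of all in Cd4 (a gene named after its values were seen) with 5375 counts, was thus within the class II-low range in Cd3e. Cd5, found on T cells and on some B cells, had 69.3 to 1313 counts against 2.42 to 25.3, with its highest values in HET_late_1, HET_late_2 and WT_late_1.

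Myeloid markers differed likewise. Of 20 macrophage genes 5 were higher and 0 lower (median difference 1.07), with a summed level of 18215 to 43773 counts in class II-high and 7571 to 19179 in class II-low tumours. C1qa, a complement subunit made by macrophages, had 1356 to 6233 against 426 to 1036 counts, whereas Csf1r, the growth factor receptor of macrophages, overlapped at 798 to 2008 against 277 to 1125. Of 15 dendritic cell genes 3 were higher (Flt3, Batf3 and Bst2; median difference 1.11), summing to 2810 to 7381 against 580 to 1225 counts. In WT_late_1, which had the largest sum, Siglech, Flt3 and Bst2 had 2677, 1524 and 2575 counts. Flt3 is also on the pro-B and pre-B list, and Bst2 on the interferon response list. The conventional dendritic cell markers Xcr1 and Clec9a had no more than 33.1 counts in any late tumour. Whether tumour cells or other cells carried the transcripts of the dendritic cell list was not tested. Cytotoxic genes included 2 higher of 14 (14.3%, against 4.56% of all genes), Eomes and Ifng. Their median difference was 2.16, with sums of 97.7 to 2742 against 44.7 to 447 counts.

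Neutrophil genes tended the other way, with 9 of 10 lower on average, a median difference of -2.34 and sums of 212 to 2288 against 1076 to 2638 counts. All 10 overlapped, and WT_late_1 was the class II-high tumour with the highest sum. The stromal list had 1 higher of 15, Postn (6.67%, against 4.56% of all genes). Its median difference was 0.50, and 0.84 and 0.85 without WT_late_2 and WT_late_5. Sums of the list were 6828 to 36257 against 7172 to 25316 counts. Neither the endothelial list (14 genes, median difference -0.05, and -0.10 to 0.09 on leaving out 1 late library) nor the erythroid list (10 genes, 1.25) had a counted gene. The part these cells have in the class differences was not tested. Of 5 sex-linked genes 0 were counted, and Xist was high in HET_late_1 and WT_late_2 (10694 and 7921 counts) and in WT_late_5 (9195).

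Over all genes, those with the widest gaps between the classes lay mostly outside these lists. Timd2, a receptor of the TIM family that binds ferritin, had 386, 285, 173, 279 and 128 counts in HET_late_1, HET_late_2, HET_late_4, WT_late_1 and WT_late_2, and was listed at 0 in all 4 class II-low tumours. Early tumours had at most 9.57. After Rgs13 and Mef2b, the other widest gaps upward included the endocytic adaptor Pacsin1 (66.3 to 1064 against 1.57 to 3.61 counts), the receptor tyrosine kinase Ephb2 (202 to 998.9 against 4.83 to 10.6), the RAB11 effector Rab11fip4 (334 to 509 against 6.29 to 9.67) and Glt1d1 (69.1 to 136 against 0 to 1.21). Fam71b, RP23-366P9.2 and AC123856.2 completed the 10.

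Downward, Foxf2, a forkhead factor, had 0.871, 2.88, 0, 0.922 and 2.04 counts in HET_late_1, HET_late_2, HET_late_4, WT_late_1 and WT_late_2, against 528, 158, 768 and 1180 in HET_late_3, WT_late_3, WT_late_4 and WT_late_5. Akap12, an anchor of protein kinase A, had 60.2 to 306 against 2469 to 7814 counts, and Tifa, an adaptor that leads to NF-κB, had 110 to 188 against 1325 to 4347. Lgr5, the R-spondin receptor known from intestinal stem cells, had 0 to 10.1 against 93.0 to 312. Slco1b2, Qrfp, Zkscan16, Cplx2 and RP23-217J21.1 were also among the 10.

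The 10 early tumours were not used to choose the classes. For 674 of the 819 higher genes (82.3%) the early median lay nearer to the class II-low median than to the class II-high one, and for 250 of the 285 lower genes (87.7%) as well. All 5 class II-high tumours were above every early tumour in 180 of the 819 genes (22%), and below every one in 61 of the 285 (21.4%). Over all 17948 genes these shares were 2.03% and 0.964%. Without HET_early_2 the counts were 346 (42.2%) and 131 (46.0%), against 3.99% and 2.85% of all genes. The 819 and 285 genes were chosen for being high or low in the 5 tumours, which also raises these shares.

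Whether the markers go together was tested in the early tumours, over 4 pairs with Rag1 on the log2(count + 1) scale. Rag1 ran from 2.66 counts in HET_early_2 through a median of 1903 to 4452, and Rag2 from 0 in the same library through 184 to 626. They were correlated with Pearson's r = 0.95 (n = 10, permutation p = 0.00068, adjusted over 4 pairs p = 0.00272). By ranks the relation missed the threshold after adjustment, with Spearman's rho at 0.77 (permutation p = 0.0126, adjusted p = 0.0503). Without HET_early_2 and WT_early_4, the tumours farthest from the median Rag1 level, r was 0.68 (exact permutation p = 0.0667, adjusted p = 0.150) and no longer passed, with 8 tumours left. Without HET_early_2 alone it was 0.82 and without WT_early_4 alone 0.95, and both passed (exact permutation tests, adjusted p = 0.0269 and 0.0204).

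With Cd93 the correlation did not pass (r = 0.46, permutation p = 0.181, adjusted p = 0.362; rho = 0.67, permutation p = 0.0397, adjusted p = 0.0795). Without the 2 farthest tumours r was 0.66 (exact permutation test, adjusted p = 0.150). It was 0.79 and passed without HET_early_2 alone (exact permutation test, adjusted p = 0.0269). With the class II genes it did not pass either. For H2-DMa r was -0.02 (permutation p = 0.945, adjusted p = 0.945) and rho was 0.04 (permutation p = 0.917, adjusted p = 0.917), and for H2-Eb1 r was -0.28 (permutation p = 0.424, adjusted p = 0.565) and rho was -0.12 (permutation p = 0.758, adjusted p = 0.917). Without the 2 farthest tumours these r were -0.02 and -0.12 (exact permutation test, adjusted p = 0.964 for both). In the 6 Bptf+/+ early tumours r was 0.72 for Rag2, 0.74 for Cd93, 0.29 for H2-DMa and 0.15 for H2-Eb1, and no pair passed (exact permutation tests). No correlation was computed over the 4 Bptf+/Δ early tumours.

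**Figure D4:**
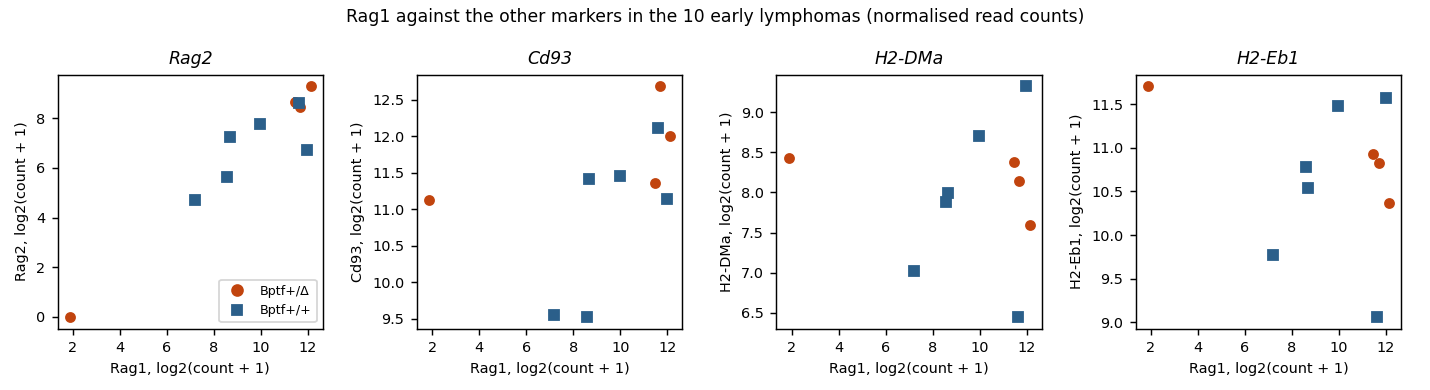
Rag1 (horizontal axis) against Rag2, Cd93, H2-DMa and H2-Eb1 (vertical axes) in the 10 early lymphomas, as log2(normalised read count + 1). Each point is a tumour, round for Bptf+/Δ and square for Bptf+/+. HET_early_2, at 2.66 counts of Rag1, lies alone at the left.

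Onset and genotype were labels that the choice of classes did not use. Class II-high tumours arose at 30 to 76 weeks (mean 50.4 ± 19.8, SD, n = 5) and class II-low ones at 28 to 58 weeks (mean 38.5 ± 13.7, SD, n = 4). The difference of 11.9 weeks did not pass a two-sided exact permutation test (p = 0.349, 5 against 4 tumours). Bptf+/Δ tumours made up 3 of 5 class II-high (60.0%) and 1 of 4 class II-low tumours (25%), which did not pass Fisher's exact test (two-sided p = 0.524).

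Because the genotypes were spread unevenly over the classes, the late genotype difference was fitted with and without the class as a term (limma on all 17948 genes, Bptf+/Δ minus Bptf+/+, 4 against 5 tumours). With the class, 0 genes (0.0%) passed at an adjusted p under 0.05, and 626 (3.49%) had an unadjusted p under 0.05. The 626 became 1230 without HET_late_1, 979 without WT_late_1 and 412 without HET_late_3. Without the class term 0 passed, and 808 had such an unadjusted p. On recovered reads, with the class, edgeR called 0 genes (657 at an unadjusted p under 0.05) and DESeq2 called 11, all higher in Bptf+/Δ tumours (0.0613%). Bptf had 1573, 408, 1137 and 694 counts in HET_late_1 to HET_late_4, against 1681, 2391, 2586, 2087 and 2217 in WT_late_1 to WT_late_5. The genotypes did not overlap in it, and its difference was -1.24 ± 0.36 (SE) with the class and -1.36 ± 0.35 without (limma, adjusted p = 0.980 and 0.859).

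The classes were picked on Rag1, early B cell genes and class II genes of these same tumours, so adding the class takes up part of the spread of those genes by construction. Their 2 values are given side by side and nothing is read from the change. Rag1 differed by -3.62 ± 1.497 (SE) with the class and by -4.95 ± 1.75 without it (limma, adjusted p = 0.980 and 0.859). Vpreb3 differed by -1.24 with the class and by -2.81 without it, and the median over the 19 pro-B and pre-B genes was -0.33 and -1.38. The median of germinal centre and plasma cell genes was 0.45 with the class and 1.15 without it, that of T cell genes 0.33 and 1.25, and that of NURF and ISWI genes -0.14 and -0.47. For MHC class II genes the medians were -0.61 and -0.06, with 13 and 8 of the 15 genes lower in Bptf+/Δ tumours, against 9349 and 8598 of all 17948 genes. Over all genes the medians were -0.02 and 0.03. These 2 fits use the same tumours and were not tested against each other.

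Interferon response genes had a higher mean in Bptf+/Δ tumours in 29 of 30 genes with the class as a term and in 29 of 30 without it, against 8599 and 9350 of all 17948 genes, with medians of 0.70 and 1.03. Igtp had 544, 560, 203 and 682 counts in HET_late_1 to HET_late_4, against 266, 236, 116, 83.4 and 57.7 in WT_late_1 to WT_late_5, and differed by 1.26 ± 0.26 with the class (SE, limma, adjusted p = 0.980). HET_late_3 was the highest class II-low tumour in it, and each of the 3 Bptf+/Δ class II-high tumours exceeded both Bptf+/+ ones. Fabp4, a fatty acid carrier of fat cells and macrophages, had 1126, 2774, 6043 and 2090 counts in the Bptf+/Δ tumours in that order, against 467 to 1502 in the Bptf+/+ ones, the smallest unadjusted p upward. St6gal1, a sialyltransferase of B cells, had 356 to 815 against 1022 to 2720 counts, the smallest downward. Neither passed adjustment (limma, adjusted p = 0.980 for both). The 5 smallest p upward also included Negr1, Sfn and Lilr4b, and downward Zfp52, Plxnb2, Trim35 and Sorl1.

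**Figure D5:**
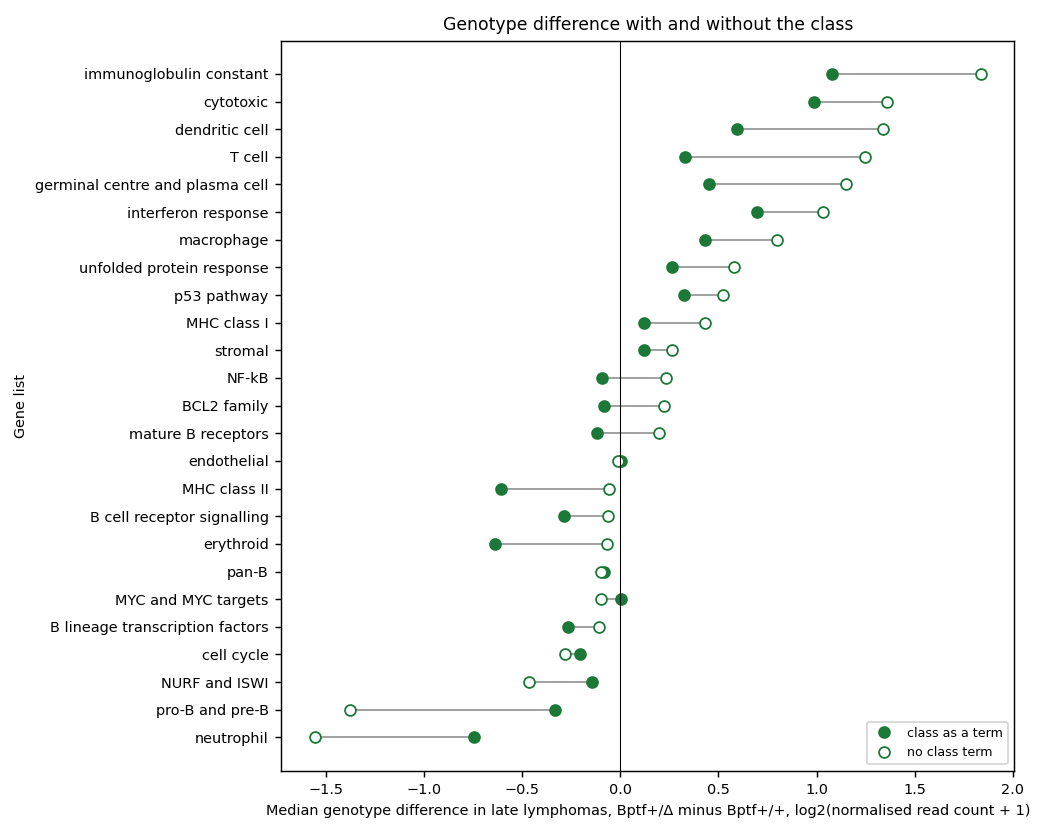
Median genotype difference of 25 gene lists in late lymphomas, Bptf+/Δ minus Bptf+/+, on the log2(count + 1) scale (horizontal axis), with the class as a term (filled) and without it (open). The pro-B and pre-B list lies at -0.33 with the class and at -1.38 without it, a list whose genes were among those the classes were picked on.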

How the data were processed

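Polyadenylated RNA of 19 lymphomas was sequenced, per the labels' protocols, from TruSeq libraries on a Genome Analyzer IIx, with 8 or 10 amplification cycles depending on a protocol version that was not given per library. The submitters' processing notes name TopHat2 2.1.1, Cufflinks 2.2.1 with Cuffnorm and Cuffdiff, FastQC 0.11.5 and the build GRCm38 (mm10). Annotation, strand setting and the maker of the table are not given in the sources used here. In the authors' deposited table each of 21086 genes has a normalised signal per library, that is, its count divided by a factor of that library. Dividing by the worth of 1 read gave whole reads for 100% of values (within 0.01 reads), and these reads went into edgeR and DESeq2. The authors' deposited log2 fold changes and the p-values deposited with them were not used.

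Values were analysed as log2(value + 1) for genes that reached 1 in 4 or more of the 9 late libraries. Classes, members and the 26 gene lists were chosen with earlier results of these data known, so class differences carry no test. A gene counted as separating the classes when they did not overlap and the means differed by at least 1. Genes were named by a rule that took the marker genes, Bptf and Myc. It added up to 6 members of each list with the largest difference (mean of at least 20 in either class, genes without overlap first), and the 10 widest gaps in each direction (mean of at least 50). For genotype it took the 5 smallest p in each direction. Predicted genes and immunoglobulin variable segments were passed over, and all members of the immunoglobulin, class II and pro-B lists could be described. Pou2af1, Tcf4, Pax5, Cr2, Cd4, Creld2, Ifng, Csf1r, Xcr1, Clec9a, Col2a1 and Bpifa2 fell outside the rule and were chosen after their values were seen. Some genes that the rule took are not reported here. Of 208 named genes 205 were found in GENCODE M21 (GRCm38), and 23 symbols that spreadsheet software had turned into dates were left as they stood.

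Genotype in the 9 late tumours was fitted with limma 3.58.1 (trend, empirical Bayes, Benjamini-Hochberg adjustment) in R 4.3.3, with class as a term. Alternatives were edgeR 4.0.16, DESeq2 1.42.0, TMM scaling, a pseudocount of 0.1, no filter, no class term and leaving out each library. All 3 tools were run on simulated counts that had the same spread parameter in every gene and no class difference. These tumours differ from that setting, so nothing about the genotype calls is read from that run. Correlations and onset used permutation tests in SciPy 1.17.1 (100000 resamples for 10 tumours, exact otherwise). Each library was a separate tumour, and p-values measure the spread between tumours. Depth covers counting error only, because reads amplified without molecular identifiers can copy 1 molecule.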

Additional observations from a re-analysis of the deposited data

Results flagged for a closer look

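Of 73 groups of values checked, 6 held a tumour far from the rest of its group by Dixon's test. Chance alone flags about 1 group in 20.

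In the class II-high tumours Rag2 was 1.02 counts, a single read, in WT_late_2 and 0 in the other 4. The mean log2 level of the interferon response list was 6.26 in WT_late_1, against 7.03 to 7.33 in the other 4. That value lay below the highest class II-low tumour, HET_late_3 at 6.83, so the classes overlapped in this level. The mean log2 level of the unfolded protein response list was 12.16 in HET_late_4, against 10.91 to 11.19 in the other 4, and this library also had 18.5% of its reads in immunoglobulin constant genes.

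In the class II-low tumours the mean log2 level of the germinal centre and plasma cell list was 6.68 in HET_late_3, against 5.36 to 5.50 in the other 3. That value still lay below the lowest class II-high tumour, which was at 7.48.

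In the early tumours HET_early_2 was the lowest in both recombinase genes. Rag1 was 2.66 counts in it, against 145 to 4452 in the other 9, and Rag2 was 0.0, against 25.4 to 626.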

How the results depend on the processing

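The count of genes higher in class II-high tumours was 392 and that of lower genes 113 with a log2 difference of at least 2. On leaving out 1 late library the counts ran from 916 to 1322 (1322 without WT_late_3) and from 291 to 402. With TMM scaling they were 804 and 286, of which 796 and 280 were shared with the reported genes. Of the 206 named genes that were kept, 12 changed the sign of their class difference on leaving out 1 late library and 0 under the other alternatives, and none of the 12 was counted as separating the classes. They were Spn, Bst1, H2-Ob, Ighg2b, Ighg2c, Ighg3, Eng, Ddx3y, Eif2s3y, Fabp4, Sfn and Trim35. Among all class differences of the named genes, 10 of 2266 values moved by at least 1 SD. DESeq2 called 11 genes for genotype, against 0 for limma and edgeR, and leaving out any 1 library left 0 calls by limma, with 412 to 1230 genes at an unadjusted p under 0.05. The onset difference ran from 5.5 to 18.4 weeks and that of the Bptf+/Δ share from 25 to 60 percentage points.

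Among the early tumours, Rag1 against Rag2 lost significance without the 2 tumours farthest from the median (r = 0.682) and in Bptf+/+ tumours alone (0.718), and ran from 0.821 to 0.987 on leaving out 1 tumour. Against Cd93 r ran from 0.392 to 0.786 (0.786, which passed, without HET_early_2). Against H2-DMa the sign turned in Bptf+/+ tumours alone (0.285) and without HET_early_2 (0.250), HET_early_4 (0.0266) or WT_early_5 (0.175), within a range of -0.225 to 0.250. Against H2-Eb1 it turned in Bptf+/+ tumours alone (0.154) and without HET_early_2 (0.168), within -0.428 to 0.168. The cause was not tested. No paired analysis was possible because the replicate numbers only follow accession order. At 8297856 to 12350345 reads per late library, differences of 1 read, as in Rag2 between WT_late_2 and the other class II-high tumours, are at the limit of detection.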
